A study of Danio rerio with 4 samples.

Results

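Receptors and ligands of the semaphorin, ephrin, Slit and netrin systems were followed in endothelial cells sorted from zebrafish. Members were the genes whose symbol begins with that of a semaphorin of class 3 to 7, a plexin of type A to D, a neuropilin, an Eph receptor, an ephrin, a Robo, a Slit, an Unc5 or a numbered netrin. That rule found 95 of the 31951 genes in the deposited table, in 15 families. It also took in UNC50, whose symbol begins like those of the netrin receptors but which is not one of them, so UNC50 was counted as a member and left out of the families. An FPKM (fragments counted relative to transcript length and library total) of at least 1 in at least 2 libraries was required for testing, and 86 members passed. Ensembl identifiers were matched to symbols, and 64 members carry a symbol in capitals, in the style of human genes. For 16 symbols 2 rows share 1 symbol, as zebrafish often keep duplicate genes, and these rows are told apart here by their Ensembl number.

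These proteins steer growing axons and, in the same way, growing vessels. Semaphorins bind plexins, and class 3 semaphorins mostly do so through neuropilins, which also act as co-receptors for VEGF. Ephrins on 1 cell bind Eph receptors on its neighbour, with ephrin-B2 typical of arteries and EphB4 of veins. Slits bind Robo receptors and netrins bind Unc5 receptors. PlexinD1, Robo4, Unc5b and EphB4 are the members best known from endothelium, whereas most of the others were first described in the nervous system.

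Both groups carried kdrl:mcherry, a red reporter under the promoter of the endothelial receptor gene kdrl, which allowed the sort. The kdrl:cxcr1 group also carried kdrl:cxcr1, which places the chemokine receptor gene cxcr1 under the same promoter, and the group called wild-type here lacked it. Each of 2 clutches of fish gave 1 library per genotype, so there were 4 libraries and 2 per group. Where a pair of values is given for a genotype, clutch 1 comes first and clutch 2 second. The sources used here state neither the age of the embryos nor how many were pooled per library.

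The row cxcr1 (ENSDARG00000052088) read 12.8 and 0 FPKM in kdrl:cxcr1 clutches 1 and 2, and 8.14 and 0 FPKM in wild-type clutches 1 and 2. A second row, CXCR1 (ENSDARG00000054975), read 0 and 8.21 FPKM in kdrl:cxcr1 libraries, against 3.89 and 0 FPKM in wild-type libraries. Neither row told the genotypes apart. A 0 in such a table can be a failed estimate, and genotypes below are those of the labels. The endothelial genes kdrl (128 to 274 FPKM) and cdh5 (92.5 to 178 FPKM) were present in every library. RNA of other cells was present too. The neuronal gene ELAVL3 read 92.4 and 50.4 FPKM in kdrl:cxcr1 libraries, against 115 and 19.9 FPKM in wild-type libraries. The median of a list of neuronal and neural progenitor genes was lower, at 9.98 and 3.69 FPKM against 12.3 and 3.11 FPKM. The globin gene hbae3 lay at 1348 to 6370 FPKM, the neutrophil gene lyz at 310 to 703 FPKM and the collagen gene col1a1a at 172 to 352 FPKM. These genes were picked as high rows of their lists. A member's level is therefore that of the sorted sample, and fewer cells of a type cannot be told apart from less RNA per cell. FPKM values do not show the depth, which is unknown, and no counting error can be attached to them.

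The families differed widely in level. Neuropilins were the highest, with a median over their 4 rows of 48.3 and 51.5 FPKM in kdrl:cxcr1 libraries, against 54.3 and 67.3 FPKM in wild-type libraries. Ephrin-B ligands followed, at 26.7 and 29.4 FPKM in kdrl:cxcr1 libraries, against 22.2 and 20.3 FPKM in wild-type libraries, except that the single class 7 semaphorin row, sema7a, was above them in wild-type clutch 2 at 23.2 FPKM. Unc5 receptors were the lowest, with a median of 3.17 and 1.16 FPKM in kdrl:cxcr1 libraries, against 1.04 and 0.540 FPKM in wild-type libraries over the 3 rows that passed the filter. The neuropilin median was the highest of all families and the Unc5 median the lowest in each of the 4 libraries. The members as a whole lay close to the other genes. Their median was 10.3 and 6.93 FPKM in kdrl:cxcr1 libraries, against 9.01 and 6.95 FPKM in wild-type libraries, beside 7.59, 7.62, 6.76 and 6.37 FPKM for all genes tested in the same order. Of the 86 tested members 26 reached 10 FPKM in every library, against 25.6% of all genes tested.

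**Figure D1:**
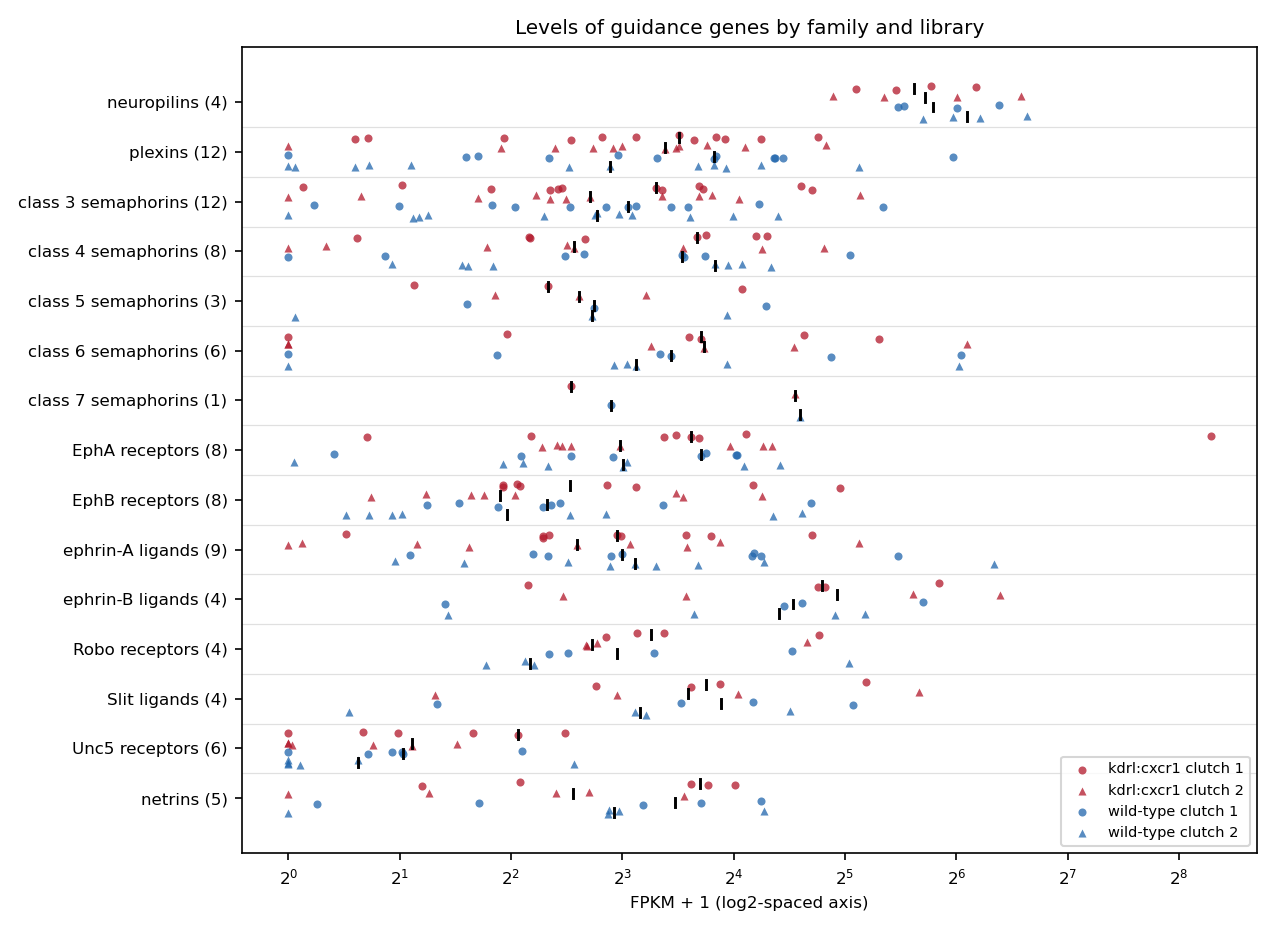
Level of each of the 94 members that belong to a family, as FPKM + 1 on a log2-spaced axis, in 1 band per family with its number of rows. Red is kdrl:cxcr1, blue is wild-type, circles are clutch 1, triangles are clutch 2, and black ticks are the median of the tested rows in that library. Neuropilins lie at the right in all 4 libraries, and the point at the far right of the EphA band is epha4b in kdrl:cxcr1 clutch 1.

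All 4 neuropilin rows were among the 9 members with the highest mean. NRP2 (ENSDARG00000096546) read 53.6 and 94.5 FPKM in kdrl:cxcr1 libraries, against 63.4 and 98.2 FPKM in wild-type libraries. NRP1 (ENSDARG00000102153) read 71.4 and 63.1 FPKM against 82.7 and 61.5 FPKM. Each of these rows had overlapping genotypes, and each exceeded 92.3% to 95.5% of tested genes across the libraries. nrp1b read 43.1 and 39.9 FPKM in kdrl:cxcr1 libraries, against 45.2 and 73.0 FPKM in wild-type libraries. The second NRP2 row (ENSDARG00000038446) read 33.3 and 28.8 FPKM against 43.5 and 51.1 FPKM. In nrp1b and the second NRP2 row both kdrl:cxcr1 libraries lay below both wild-type libraries, as they did in 13.6% of all genes tested. The order of NRP1 and the first NRP2 row turned with the clutch, NRP1 being higher in clutch 1 and NRP2 in clutch 2.

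Among the 12 plexin rows, plxnd1, the receptor of Sema3E in endothelium, read 26.1 and 27.5 FPKM in kdrl:cxcr1 libraries, against 20.8 and 34 FPKM in wild-type libraries. It was the highest plexin in 3 of the 4 libraries and exceeded 80.2% to 86.4% of tested genes. In wild-type clutch 1 the PLXNB1 row ENSDARG00000075821 was higher, at 61.7 FPKM, while it read 14.1 and 10.2 FPKM in the kdrl:cxcr1 libraries, and 13.2 FPKM in wild-type clutch 2. On the log2(FPKM + 1) scale the lead of plxnd1 over the highest other plexin was 0.15 ± 1.13 (SD, n = 4), with -1.53 in wild-type clutch 1 and 0.52 to 0.88 in the other 3 libraries. PLXNC1, a receptor of Sema7A, read 17.9 and 16.2 FPKM in kdrl:cxcr1 libraries, against 19.6 and 14.3 FPKM in wild-type libraries. plxnb2a.1, a B-type plexin, read 13.3 and 12.5 FPKM against 19.7 and 18 FPKM, with no overlap between genotypes. The A-type plexins, which class 3 semaphorins use together with neuropilins, were lower, PLXNA2 at 6.56 to 13.3 FPKM and PLXNA3 at 6.40 to 11.5 FPKM. plxnb2a.2 was listed at 0 in all libraries but kdrl:cxcr1 clutch 1, where it read 0.512 FPKM.

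The highest semaphorin was the transmembrane SEMA6D, at 38.7 and 67.3 FPKM in kdrl:cxcr1 libraries, against 64.8 and 64.3 FPKM in wild-type libraries. The next by mean was SEMA3G (ENSDARG00000007560), a secreted class 3 ligand, at 25.0 and 34.1 FPKM against 39.5 and 14.9 FPKM. In both, the genotypes overlapped. Other semaphorin rows were above SEMA3G in wild-type clutch 2, such as sema7a at 23.2 FPKM. SEMA3E, the ligand known for plexinD1, was low, at 4.35 and 2.26 FPKM in kdrl:cxcr1 libraries, against 2.56 and 1.38 FPKM in wild-type libraries, although its receptor row was among the highest plexins. Further class 3 rows were SEMA3A (ENSDARG00000042210), which repels axons and was at 13.0 to 23.3 FPKM, and sema3aa at 11 to 12.2 FPKM. In class 6, SEMA6C (14.4 to 28.3 FPKM) and sema6bb (7.22 to 12.3 FPKM) followed SEMA6D in mean level. The row sema6ca (7.72 to 12.1 FPKM) was above sema6bb in each library but kdrl:cxcr1 clutch 2. In class 4, whose members bind B-type plexins, the highest rows were SEMA4B (ENSDARG00000074414; 18 to 32 FPKM), SEMA4C (12.4 to 27.1 FPKM) and sema4ab (10.6 to 13.2 FPKM). Class 5 was led by SEMA5A at 8.30 to 18.5 FPKM, above its rows SEMA5B (ENSDARG00000061471; 4.02 to 5.72 FPKM) and SEMA5B (ENSDARG00000075648; 0.0393 to 2.63 FPKM). SEMA6A was listed at 0 in all 4 libraries, and sema3h did not exceed 0.172 FPKM.

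In the Robo family the top row was the same in every library. robo4, the Robo receptor known from endothelium, read 26.2 and 24.3 FPKM in kdrl:cxcr1 libraries, against 21.9 and 31.7 FPKM in wild-type libraries. ROBO2 read 9.38 and 5.39 FPKM against 8.75 and 2.42 FPKM, and ROBO1 read 7.75 and 5.42 FPKM against 4.72 and 3.37 FPKM. The lowest robo4 value thus lay above the highest value of any other Robo row, including ROBO3, which guides commissural axons in mammals and lay at 3.61 to 6.24 FPKM. Below robo4 the order turned with the clutch, from ROBO2, ROBO1, ROBO3 in both clutch 1 libraries to ROBO3, ROBO1, ROBO2 in both of clutch 2. The lead of robo4 over the next Robo row was 1.84 ± 0.72 log2 units (SD, n = 4). It was 1.39 and 1.23 in the clutch 1 libraries and 1.89 and 2.83 in the clutch 2 libraries of kdrl:cxcr1 and wild-type. The Slit family was led by SLIT3, at 35.5 and 49.9 FPKM in kdrl:cxcr1 libraries, against 32.6 and 21.7 FPKM in wild-type libraries. SLIT2 (8.26 to 17.0 FPKM) and SLIT1 (ENSDARG00000044954; 6.73 to 13.7 FPKM) were below it in every library.

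Among the Unc5 receptors unc5b mostly led, but at a low level. Its row, UNC5B, read 4.59 and 0.692 FPKM in kdrl:cxcr1 libraries, against 3.29 and 4.91 FPKM in wild-type libraries. It was the highest of the 6 Unc5 rows in 3 libraries, and in kdrl:cxcr1 clutch 2 it was below both UNC5C rows. Its lead over the highest other row was 0.67 ± 1.14 log2 units (SD, n = 4), which is within the spread between libraries. It exceeded 35.4% and 14.3% of tested genes in kdrl:cxcr1, and 29.3% and 43.8% in wild-type. UNC5A was listed at 0 in every library, and neither UNC5D row passed the filter. The median of the 4 tested netrin rows, ligands of Unc5 receptors, was above the Unc5 median in every library, though single rows crossed. ntn5 lay at 2.28 to 6.81 FPKM, below UNC5B in both clutch 1 libraries, and NTN4 was listed at 0 in both clutch 2 libraries. NTN1 (ENSDARG00000105112) read 11.2 and 10.8 FPKM in kdrl:cxcr1 libraries, against 18 and 18.3 FPKM in wild-type libraries, with no overlap. The other NTN1 row (ENSDARG00000022531) lay at 4.30 to 15.2 FPKM and ntn2 at 1.4 to 12.7 FPKM.

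Of the 16 Eph receptor rows, ephb4a, the receptor gene typical of veins, read 17.1 and 10.2 FPKM in kdrl:cxcr1 libraries, against 9.32 and 23.5 FPKM in wild-type libraries. Among the 16 rows it ranked 3 and 6 in kdrl:cxcr1, and 6 and 1 in wild-type, so it led the Eph receptors in 1 of the 4 libraries. Its distance from the highest other row was -1.52 ± 1.84 log2 units (SD, n = 4), with -4.11 in kdrl:cxcr1 clutch 1, where epha4b was highest. EPHB3 (ENSDARG00000103576) read 30.0 and 18.1 FPKM against 24.8 and 19.4 FPKM, and was above ephb4a in 3 of the 4 libraries. The duplicate ephb4b lay at 4.44 to 10.7 FPKM. Of the EphA rows, which mainly bind ephrin-A ligands, EPHA4 (ENSDARG00000054454) read 11.9 to 20.3 FPKM and epha2b 7.26 to 18.2 FPKM. epha4b was the 1 member with an extreme single value: it read 311 FPKM in kdrl:cxcr1 clutch 1, against 3.85 FPKM in kdrl:cxcr1 clutch 2 and 4.80 and 2.81 FPKM in wild-type. That value was 64.9 times the next highest. A highest library over 4 times the next was also found for PLXNB1 (ENSDARG00000075821), SEMA4G (ENSDARG00000088143) and efna3a, 4 of 86 tested members against 3.52% of all genes tested, members chosen for mention after their values were seen. The sum of the EphA rows was 374 FPKM in kdrl:cxcr1 clutch 1 and 60.9 to 76.6 FPKM in the other libraries, and what made the epha4b value is not known from the table.

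Ephrin-B2, the arterial partner of EphB4, was represented by 2 rows, both high. EFNB2 (ENSDARG00000020164) read 56.5 and 48.0 FPKM in kdrl:cxcr1 libraries, against 51.2 and 35.2 FPKM in wild-type libraries. EFNB2 (ENSDARG00000074050) read 26.1 and 82.8 FPKM against 23.5 and 29.0 FPKM. Each row was above ephb4a in every library. EFNB1 lay at 10.9 to 27.3 FPKM. Among the ephrin-A ligands, which are held to the membrane by a lipid anchor, EFNA1 (ENSDARG00000030326) was highest in every library, followed on average by EFNA5 (6.96 to 18.4 FPKM) and efna5b (2.07 to 18 FPKM).

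**Figure D2:**
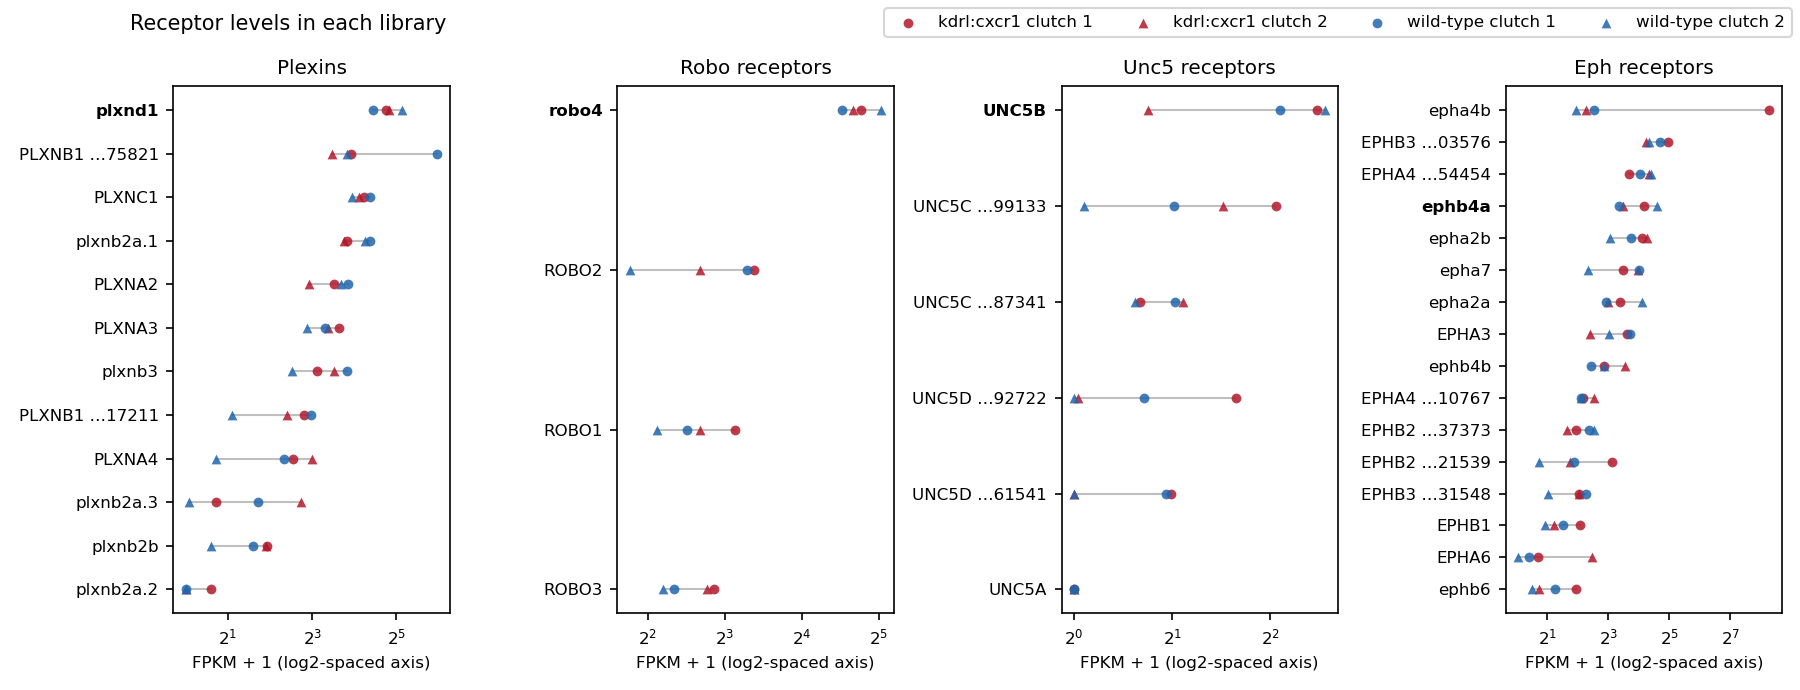
Level of every plexin, Robo, Unc5 and Eph receptor row in each library, as FPKM + 1 on a log2-spaced axis, ordered by mean, with plxnd1, robo4, UNC5B and ephb4a in bold. Where rows share a symbol, the last digits of the Ensembl number follow it, and grey lines span the 4 libraries. The robo4 values lie above all other Robo values, whereas the ephb4a values lie among those of other Eph receptors.

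Duplicate rows differed in level in some pairs. In 20 pairs of rows that share a symbol or carry an a and a b ending, the row with the higher mean was above its partner in all 4 libraries in 9 pairs. Left out were sema3ga and sema3gb, which share their stem with the row SEMA3G and so formed no pair. A row with an ending was also not paired with a row in capitals, as for nrp1b and NRP1 or efna5b and EFNA5. The row epha4b was left out in this way, while the 2 EPHA4 rows formed a pair. The mean difference exceeded 2 SD over the libraries in 5 pairs. The higher row was chosen by its mean over these same libraries, which favours a difference above 0. These counts are therefore a description and no test. EPHB3 had the widest gap, 2.71 ± 0.50 log2 units (SD, n = 4), since its row ENSDARG00000031548 lay at 1.03 to 3.87 FPKM. The EFNA1 rows differed by 2.44 ± 1.06 and the SEMA4B rows by 2.12 ± 0.52. For ephb4a and ephb4b the difference was 0.98 ± 0.78, with ephb4b slightly higher in kdrl:cxcr1 clutch 2. The 2 EFNB2 rows differed by 0.42 ± 0.88, which is within the spread between libraries. How reads of similar duplicates were assigned is not known, so these gaps are uncertain to that extent.

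**Figure D3:**
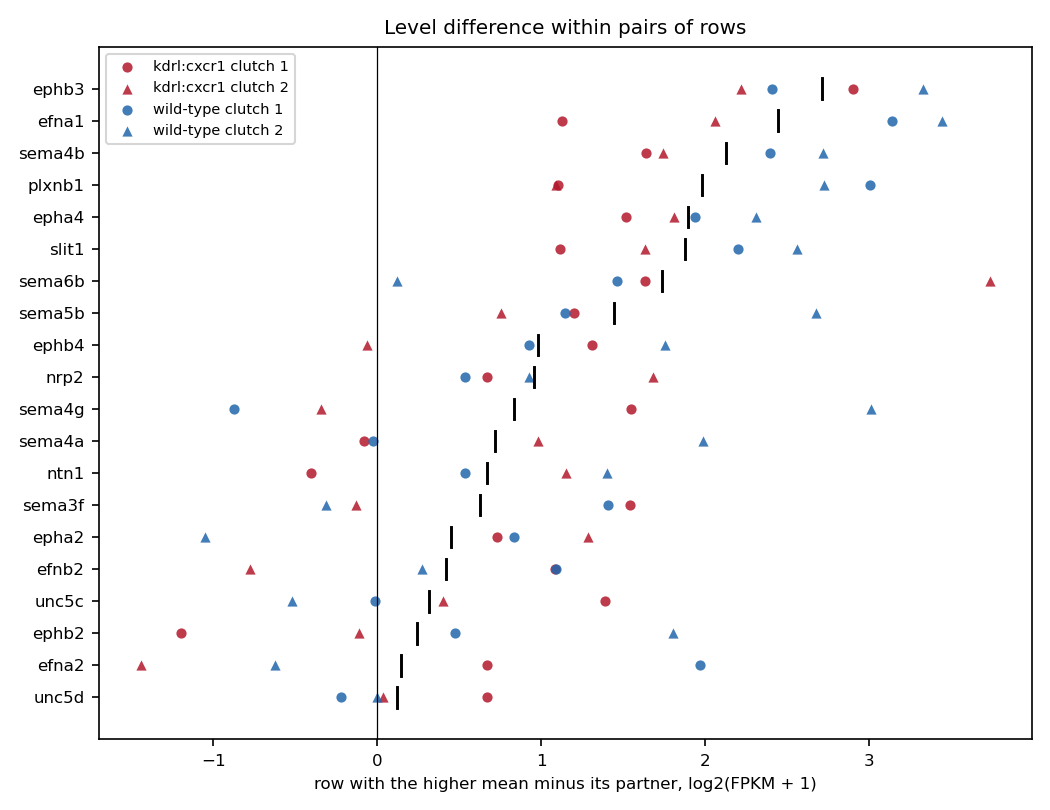
Difference in log2(FPKM + 1) between the row with the higher mean and its partner for 20 pairs, with 1 point per library and a black tick at the mean of the 4. Points right of 0 have the higher row on top; the ephb3, sema4b and epha4 pairs lie wholly to the right, while the efna2 and ephb2 pairs spread over both sides.

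The central comparison of the study, kdrl:cxcr1 against wild-type, called 0 of the 86 tested members with limma on log2(FPKM + 1) at an adjusted p under 0.05, where 0.0113% of all genes tested were called. These were 2 genes: HSP90AB1, which encodes a heat shock protein, and ENSDARG00000080647, for which no symbol was matched. With the clutch as a replicate block 0 genes were called in all. At an unadjusted p under 0.05 limma gave 0 members, against 6.8% of all genes tested. With the clutch as a block it gave 1 member, EFNA1 (ENSDARG00000030326; adjusted p = 0.598), and under median-of-ratios scaling or quantile normalization 2 each, that row and EFNA3 (ENSDARG00000098295; adjusted p from 0.733 to 0.745). For the endothelial receptors the log2 difference, kdrl:cxcr1 minus wild-type, was 0.01 (SE 0.40) for plxnd1, -0.06 (SE 0.38) for robo4, -0.16 (SE 0.58) for ephb4a and -0.71 (SE 0.79) for UNC5B, with adjusted p between 0.854 and 0.998. Each of these 4 differences was smaller than its standard error, so neither its size nor its direction is fixed by these libraries. All 4 were above wild-type in clutch 1 and below it in clutch 2. In clutches 1 and 2 the difference was 0.31 and -0.30 for plxnd1, and 0.25 and -0.37 for robo4. It was 0.81 and -1.13 for ephb4a, and 0.38 and -1.81 for UNC5B. A list of pan-endothelial marker genes turned in the same way in its summed level. That sum was 1279 and 1654 FPKM in kdrl:cxcr1 libraries, against 1195 and 2006 FPKM in wild-type libraries. Not every gene of the list did so, flt1 being above wild-type in both clutches. The part of the endothelial share in the 4 receptor differences was not tested.

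Values of the genotypes did not overlap in 18 members that were higher and 12 that were lower in kdrl:cxcr1, which is 20.9% and 14% of the members, beside 26% and 13.6% of all genes tested. Scaling the libraries by median of ratios turned this split to 9 higher and 21 lower, 10.5% and 24.4% of the members beside 18.3% and 20% of all genes, and moved the median log2 difference of all genes from 0.16 to -0.03. For that reason each family median below is its distance from the median gene. The share of tested members above wild-type was 54.7% in each clutch, beside 58.3% and 55.3% of all genes tested in clutches 1 and 2.

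Ephrin-A ligands lay lowest. Of their 9 rows 7 were below the median gene, and the family median was 0.95 log2 units below it, from -1.08 to -0.65 over the alternatives. EFNA1 (ENSDARG00000030326) read 25.0 and 34 FPKM in kdrl:cxcr1 libraries, against 43.5 and 79.9 FPKM in wild-type libraries, a log2 difference of -0.99 (SE 0.43, limma adjusted p = 0.699), which was -0.56 without wild-type clutch 2. EFNA3 (ENSDARG00000098295) read 4.08 and 0.0884 FPKM against 6.47 and 11.8 FPKM, a log2 difference of -2.05 (SE 0.90, adjusted p = 0.699), which was -0.94 without kdrl:cxcr1 clutch 2. In both rows each kdrl:cxcr1 value was below each wild-type value, which was required of members named by p, and neither passed the test. The same order held for EFNA5 (6.96 and 13.7 against 17.2 and 18.4 FPKM) and for efna3a, at 0.431 and 0 against 1.13 and 4.71 FPKM. efna3a passed the filter on low values through the wild-type libraries alone, as did 334 of all genes tested, so it had to differ. That row is counted in the 7 of 9, in the family median and among the 12 members lower without overlap. The second EFNA1 row (ENSDARG00000018787) went the other way, with 10.9 and 7.40 FPKM in kdrl:cxcr1 libraries, against 4.05 and 6.43 FPKM in wild-type libraries, as did EFNA2 (ENSDARG00000031372).

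Beside these values, the epidermal marker list had a median of 37.3 and 9.06 FPKM in kdrl:cxcr1 libraries, against 42.0 and 46.0 FPKM in wild-type libraries, with 15 of its 17 tested genes below the median gene. Its summed level was 3670 to 3828 FPKM in kdrl:cxcr1 libraries, against 3458 to 3645 FPKM in wild-type, most of it from pfn1, a gene of many cell types. In kdrl:cxcr1 clutch 2, 4 of its 18 genes were listed at 0, among them the claudin gene cldne. The liver, gut and yolk list lay below the median gene in 9 of 10 tested genes, and the erythroid list above it in 9 of 12. Neutrophil and macrophage genes lay above it in 13 of 18. Skeletal muscle and somite genes lay below it in 11 of 14, and neural crest and pigment cell genes in 6 of 7. The part of these cells in the ephrin-A values was not tested.

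Neuropilins lay below the median gene in 4 of 4 rows, with a family median of -0.46 relative to all genes, from -0.82 to -0.31 over the alternatives. The second NRP2 row was the one with the smallest p, a log2 difference of -0.59 (SE 0.34, adjusted p = 0.718). Netrins also had 4 of 4 tested rows below it, but their median of -0.46 turned to 0.02 when 1 library, kdrl:cxcr1 clutch 2, was left out. NTN1 (ENSDARG00000105112) differed by -0.67 (SE 0.40, adjusted p = 0.721). Robo receptors (3 of 4 rows above the median gene, family median 0.36) and ephrin-B ligands (3 of 4, family median 0.39) lay higher. The Robo median ran from 0.11, without kdrl:cxcr1 clutch 1, to 0.48, and the ephrin-B median from 0.10, with the stricter filter of 5 FPKM in 2 libraries, to 0.46. Pan-endothelial markers, too, were below the median gene in 18 of 23 genes, with a median of -0.19 relative to all genes. Before the median gene was subtracted their median was -0.04. Without overlap, 2 of them were higher and 1 lower in kdrl:cxcr1. Of the arterial list 9 of 15 genes lay below the median gene, and of the venous and lymphatic list 10 of 12. The part of cell content in the neuropilin and Robo values was not tested.

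Of single members above wild-type in both clutches, SEMA3D, a class 3 semaphorin expressed around developing vessels in zebrafish, read 11.9 and 15.5 FPKM in kdrl:cxcr1 libraries, against 7.71 and 5.74 FPKM in wild-type libraries. Its log2 difference was 0.93 (SE 0.47, adjusted p = 0.699). epha2b read 16.2 and 18.2 FPKM against 12.5 and 7.26 FPKM (0.79, SE 0.46, adjusted p = 0.72). UNC5C (ENSDARG00000099133) read 3.17 and 1.86 FPKM against 1.03 and 0.0756 FPKM (1.23, SE 0.73, adjusted p = 0.721). The wild-type values of UNC5C lay near or below the filter cut of 1 FPKM, so its difference rests on low values. None of the 3 passed the test. Their groups did not overlap, but that was required of members named by p and is no further result. Higher without overlap were 20.9% of the tested members, beside 26% of all genes tested. Of 19 tested fibroblast, mural and mesenchymal marker genes 7 were higher without overlap and 1 was lower. The shares of all genes tested were 26% and 13.6%. The part of such cells in the values of these 3 members was not tested.

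**Figure D4:**
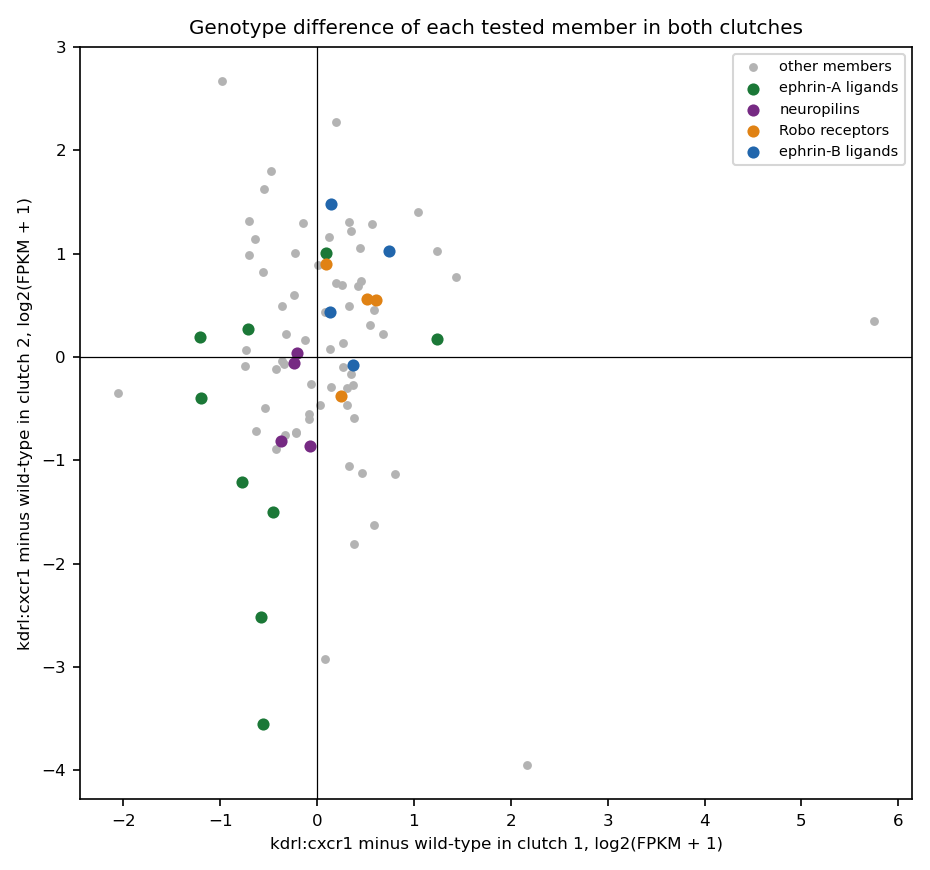
Genotype difference of each of the 86 tested members, kdrl:cxcr1 minus wild-type in log2(FPKM + 1), in clutch 1 (horizontal) and in clutch 2 (vertical). Of the 9 ephrin-A rows, in green, 7 have a fitted difference below that of the median gene. Among these 7 is efna3a, which passed the filter through the wild-type libraries alone. The grey point at the far right is epha4b.

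Other genes of these pathways were taken from 4 lists, which share some rows and were chosen with earlier results of these data known. Of their 28, 34, 31 and 31 tested genes, 0 were called higher and 0 lower by genotype. Of those genes 4 had an unadjusted limma p under 0.05 and were higher, and 1 had it and was lower, beside 4.54% and 2.27% of all genes tested. The lower one was a row of TIAM1 (ENSDARG00000078430), a Rac exchange factor that Eph receptors recruit. It read 8.10 and 6.61 FPKM in kdrl:cxcr1 libraries, against 16.7 and 18.9 FPKM in wild-type libraries (log2 difference -1.17, SE 0.43, adjusted p = 0.699). The other TIAM1 row (ENSDARG00000025920) was not among those with an unadjusted limma p under 0.05. Above wild-type were the rows TRIO and triob, exchange factors downstream of netrin receptors. TRIO read 20.2 and 50.1 FPKM in kdrl:cxcr1 libraries, against 7.95 and 4.79 FPKM in wild-type libraries (log2 difference 2.19, SE 0.58, adjusted p = 0.699). triob read 12.7 and 20.0 FPKM against 6.98 and 2.43 FPKM. The others above wild-type were arhgef11, a RhoA exchange factor that binds B-type plexins (11.4 and 16.5 against 6.40 and 2.65 FPKM), and the glypican gene gpc1b (11.6 and 15.4 against 4.53 and 2.46 FPKM). The netrin receptor gene DCC read 8.19 and 3.82 FPKM in kdrl:cxcr1 libraries, against 1.30 and 1.09 FPKM in wild-type libraries (1.60, SE 0.66, adjusted p = 0.699). In none of these 6 rows, which were named for their small p, did the groups overlap. In the 4 lists, in the order above, 4, 9, 9 and 7 tested genes were higher without overlap. Lower without overlap were 4, 0, 4 and 3. Of all genes tested 26% were higher and 13.6% lower without overlap. Next by p were cntn2, RND3 (ENSDARG00000007396), RRAS, CRKL and VASP, which read higher in kdrl:cxcr1, and GRB10 (ENSDARG00000002013), which read lower, with adjusted p from 0.699 to 0.721. The list medians lay between -0.16 and 0.06 log2 units from the median gene.

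The clutches were compared next, in a fit with genotype as a term. Again 0 of 86 members were called, where 0.0169% of all genes tested, 3 genes without a symbol, were. At an unadjusted p under 0.05 there were 3 members, against 10.2% of all genes tested: 1 was higher in clutch 2, beside 3.33%, and 2 were lower, beside 6.84%. sema7a, a membrane-anchored semaphorin also carried by blood cells, read 4.81 and 6.44 FPKM in the clutch 1 libraries of kdrl:cxcr1 and wild-type, and 22.5 and 23.2 FPKM in those of clutch 2. Its log2 difference, clutch 2 minus clutch 1, was 1.86 (SE 0.46, adjusted p = 0.436), with a range of 1.68 to 2.04 when any single library was dropped. EFNA2 (ENSDARG00000079740) went from 6.76 and 17.0 FPKM to 1.22 and 0.945 FPKM (-2.51, SE 0.70, adjusted p = 0.445), and efna5b from 12.9 and 18 FPKM to 2.07 and 7.68 FPKM (-1.65, SE 0.57, adjusted p = 0.453). In all 3 the clutches did not overlap, which was also required of members named by p.

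Guidance genes as a set tended to read lower in clutch 2. Values did not overlap between clutches in 28 members that were lower in clutch 2, 32.6% of the 86, beside 20.4% of all genes tested. In the other direction there were 9 members, 10.5%, beside 15.5%. In kdrl:cxcr1 alone 54 of 86 members were lower in clutch 2 (62.8%, beside 51.1% of all genes), and in wild-type alone 53 were (61.6%, beside 52.7%). Lower members included ROBO2 (9.38 and 8.75 FPKM in clutch 1, 5.39 and 2.42 FPKM in clutch 2) and sema4aa, a class 4 semaphorin (12.5 and 10.8 FPKM, then 4.91 and 2.59 FPKM). The single high value of epha4b gave that row a difference of -3.31 (SE 1.29, adjusted p = 0.494). Of the 8 EphB rows 5 were lower without overlap and 0 were higher. Among these 5, and among the 28 members, is ephb6, at 2.80 and 1.38 FPKM in clutch 1 and 0.673 and 0.430 FPKM in clutch 2. It passed the filter through the clutch 1 libraries alone, as did 1083 of all genes tested, so it had to differ. The 9 members that were higher in clutch 2 included plxnd1, the first NRP2 row, sema7a, the EFNB2 row ENSDARG00000074050 and the EPHA4 row ENSDARG00000054454. The first NRP2 row differed by 0.71 (SE 0.29, adjusted p = 0.508) and plxnd1 by 0.38 (SE 0.38, adjusted p = 0.834).

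Marker genes of other cells moved with the clutch in the same libraries. Of 33 tested genes of the neuronal and neural progenitor list 31 lay below the median gene in clutch 2 against clutch 1, 18 of them without overlap, and 0 were higher without overlap. Their summed level was 605 and 644 FPKM in the clutch 1 libraries of kdrl:cxcr1 and wild-type, and 490 and 266 FPKM in those of clutch 2, with gap43 listed at 0 in all 4. The pan-endothelial list went the other way: 23 of 23 genes lay above the median gene, 17 without overlap, and its sum was 1279 and 1195 FPKM in clutch 1 and 1654 and 2006 FPKM in clutch 2. Some lists of other cells also read lower in clutch 2. Of the epidermal genes 15 of 17 lay below the median gene, with a list median of -0.96 relative to it. Of the skeletal muscle and somite genes 12 of 14 did, with a list median of -0.88 relative to it. The neutrophil and macrophage list did not, with 11 of 18 genes above the median gene and a list median of 0.40 relative to it. The fibroblast, mural and mesenchymal list lay near it, at -0.10, with 12 of 19 genes below. The share of all genes listed at 0 was 31.9% in both clutch 1 libraries, and 43.5% and 42% in those of clutch 2, where 9 and 7 of the 95 members were at 0 against 2 and 4 in clutch 1. The part of RNA from these other cells, of the endothelial share and of depth in the clutch values was not tested.

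**Figure D5:**
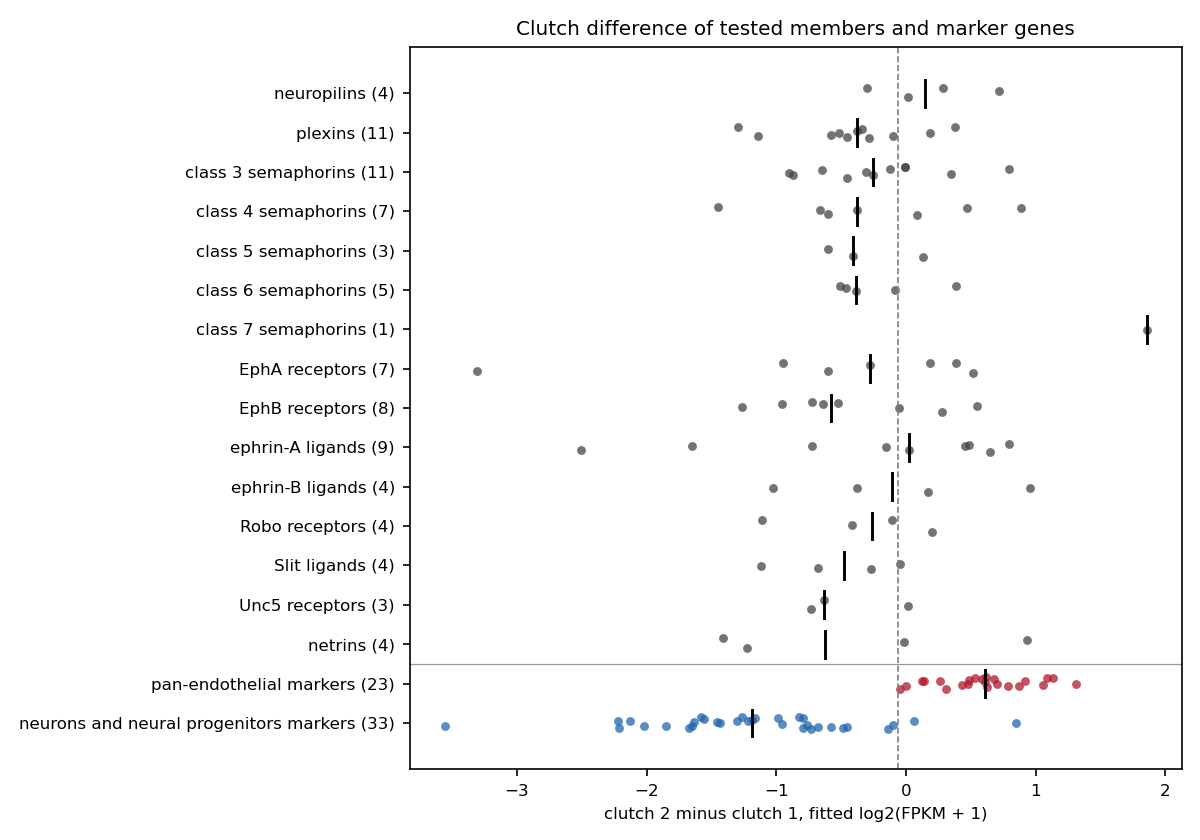
Clutch difference, clutch 2 minus clutch 1 in fitted log2(FPKM + 1), of each tested member by family, and of the tested pan-endothelial (red) and neural (blue) marker genes below the grey line. Black ticks are medians and the dashed line is the median of all genes tested, at -0.06. The neural markers lie mostly to the left and the endothelial markers to the right, and most families have their median left of the dashed line.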

How the data were processed

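RNA from sorted zebrafish endothelial cells was sequenced as SMARTer low-input libraries, per the labels' protocols. The deposited values are FPKM, 1 column per library, as the authors supplied them. Cutadapt, TopHat2 2.0.11, Cufflinks 2.2.1 and build GRCz10 are named in the submitters' processing notes; the sources used here give no annotation, strand setting or library scaling. No coordinates or sequences are given.

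Symbols matched 26120 of 31951 identifiers. Values were analysed as log2(FPKM + 1), where a fold change understates that of low genes, with limma 3.58.1 in R 4.3.3, an intensity trend, Benjamini-Hochberg adjustment over all 17723 genes that reached an FPKM of 1 in 2 or more libraries, and a threshold of 0.05. Replicates are clutches, so p-values of the genotype fit without a block measure the spread between 2 clutches per group. Where genotype and clutch are both in the fit, they measure how far the genotype difference varied between clutches. Both spreads were moderated with those of the other genes. The labels' clutch numbers pair the libraries (correlation of same-clutch deviations 0.116).

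Members and lists were chosen with earlier results of these data known. Of 339 list entries 313 matched, by symbol or by a symbol in capitals without its a or b ending. Named were the 4 endothelial receptors, the 3 highest tested members of each family, those first by p without overlap (8 by genotype, 6 by clutch) and 3 genes per pathway list; further members were named after their values were seen. Alternatives were other pseudocounts, filters, scalings, moderation and thresholds, a replicate block and leaving out each library.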

Additional observations from a re-analysis of the deposited data

How the results depend on the processing

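No alternative called a member by genotype or by clutch (0 of 86, or of the members left by another filter). The count of all genes called by genotype, 2, was 0 with a pseudocount of 0.1, without a filter, without the intensity trend, with the clutch as a replicate block and with any 1 library left out (0 to 0). By clutch, 3 genes became 1 with a pseudocount of 0.1, 6 without a filter, 7 with the stricter filter or a threshold of 0.1, 5 after quantile normalization, 0 without the trend and 0 to 15 with 1 library left out, in a fit without the genotype term: 0 without either clutch 1 library, 11 without kdrl:cxcr1 clutch 2 and 15 without wild-type clutch 2. With 1 library left out, the lone library of a group is assumed to vary like the others. The genotype difference of plxnd1 turned to -0.21 with median-of-ratios scaling and to -0.13 with quantile normalization, and ran from -0.34 to 0.35 with 1 library left out. The same ranges were -0.78 to 0.46 for ephb4a, -0.32 to 0.19 for robo4 and -1.57 to 0.15 for UNC5B, and by clutch -0.29 to 0.84 for ephb4a and -1.53 to 0.27 for UNC5B. Members lower in clutch 2 without overlap numbered 27 and 24 under those scalings (31.4% and 27.9%, beside 20.6% and 18.9% of all genes), and by genotype quantile normalization gave 17 higher and 15 lower (19.8% and 17.4%, beside 20.1% and 18% of all genes); these counts under other scalings were added after seeing the data. The cause of these shifts was not tested. Unknown depth limits what can be said of rows near 0.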
